A study of Mus musculus with 4 samples.

Results

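The nuclear genes of oxidative phosphorylation were examined for SOX2 binding in the mouse cortex. They were taken by symbol from the RefSeq gene table of the mm10 build as the protein-coding genes starting Ndufa, Ndufb, Ndufc, Ndufs, Ndufv, Sdh, Uqcr, Cox4, Cox5, Cox6, Cox7, Cox8 or Atp5, without those starting Ndufaf. This gave 92 of 21887 protein-coding genes. The data are chromatin immunoprecipitation with sequencing (ChIP-seq): 3 libraries pulled down with a rabbit antibody to SOX2 (IP libraries) and 1 input library of unselected chromatin. All 4 came from whole cortex of male C57BL/6 mice aged 2 months. The protocol describes untreated wild-type tissue, yet every sample, the input too, also carries a label of transduction with SOX2, which was not used here. Separate animals or chromatin are not stated for the IP libraries, so p-values and SD measure only the spread between libraries, which may be technical. Whole cortex mixes neurons, glia and vessel cells, and a peak's strength does not tell how many cells carry it from how often it is occupied in each.

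Oxidative phosphorylation passes electrons from NADH and succinate along protein complexes I to IV of the inner mitochondrial membrane, and complex V, the ATP synthase, uses the proton gradient that they build to make ATP. A few subunits are encoded by the mitochondrial genome and all others by nuclear genes, most of which are active in nearly every cell type. SOX2 is a transcription factor of neural stem cells that adult astrocytes also make. By symbol, 41 of the 92 genes belong to complex I, 4 to complex II, 4 to the assembly of complex II (Sdhaf1 to Sdhaf4), 8 to complex III, 18 to complex IV and 17 to complex V. Ndufa4 is counted with complex I by its symbol, although its protein is known as a subunit of complex IV. None of the peaks in the tables lies on the mitochondrial chromosome.

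A peak whose centre lay within 1 kb of either end of a gene is called a gene-end peak. Peaks of different libraries that shared at least 1 bp were merged, and a region built from at least 1 peak per library was counted as found in all 3. The strength of a peak is the authors' normalized tag value, that is, sequenced tags scaled to a library total of 10000000. The libraries held 32492927 to 41875666 tags and 15891 to 17730 peaks, and a peak needed 13 to 16 tags, so weak peaks are near the threshold.

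The bases under the strongest gene-end regions are shown first, so that the regions described below can be read. Each line gives the part of the RefSeq promoter window (GRCm38.p6, from 250 bases before to 50 bases after the annotated start) that lay inside the region, read 5′ to 3′ on the strand of the gene. Capitals mark 2 motifs, the palindrome TCGCGA and the SOX core CATTGT, searched on both strands (ACAATG is the SOX core read on the other strand). Atp5pb, Ndufa7, Ndufv1, Cox7a2l and Ndufa11 carried the strongest regions by mean normalized tags, in this order. From Ndufa7 on, the values of each overlapped those of the next. Ndufb5 is shown because, of the 19 genes with both a region and a promoter window, it alone held CATTGT. Other spellings of the SOX core were not searched.
Atp5pb, chr3:105959248-105959415, minus strand: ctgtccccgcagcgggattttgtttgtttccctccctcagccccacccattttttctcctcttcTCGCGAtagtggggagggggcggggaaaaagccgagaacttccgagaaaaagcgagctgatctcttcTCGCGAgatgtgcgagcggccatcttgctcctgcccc
Ndufa7, chr17:33824437-33824621, plus strand: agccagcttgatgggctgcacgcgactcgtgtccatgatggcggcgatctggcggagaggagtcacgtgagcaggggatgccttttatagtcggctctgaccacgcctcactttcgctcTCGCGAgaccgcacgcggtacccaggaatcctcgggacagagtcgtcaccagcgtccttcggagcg
Ndufv1, chr19:4012706-4012887, minus strand: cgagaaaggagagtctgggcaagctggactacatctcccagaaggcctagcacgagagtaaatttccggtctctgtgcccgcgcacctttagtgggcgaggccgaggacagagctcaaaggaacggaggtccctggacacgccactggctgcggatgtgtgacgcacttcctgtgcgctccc
Cox7a2l, chr17:83514502-83514583, minus strand: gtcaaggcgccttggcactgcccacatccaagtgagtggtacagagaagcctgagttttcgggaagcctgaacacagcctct
Ndufa11, chr17:56717690-56717811, plus strand: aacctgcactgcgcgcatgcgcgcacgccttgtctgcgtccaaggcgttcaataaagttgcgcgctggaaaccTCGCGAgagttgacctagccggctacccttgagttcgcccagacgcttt
Ndufb5, chr3:32736813-32737020, plus strand: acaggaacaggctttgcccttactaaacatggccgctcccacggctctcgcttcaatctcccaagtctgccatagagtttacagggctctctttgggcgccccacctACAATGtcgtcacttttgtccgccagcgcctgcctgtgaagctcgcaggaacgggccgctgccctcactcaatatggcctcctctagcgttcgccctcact

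Gene-end peaks were found at 36, 33 and 31 of the 92 genes in IP libraries 1, 2 and 3, or 39.1%, 35.9% and 33.7% of them. Over all protein-coding genes, 18.3%, 18.4% and 15.7% had such a peak in the same libraries. The share was 18.8 ± 1.83 percentage points higher in the oxidative phosphorylation genes than in the other protein-coding genes (SD, n = 3 libraries) and higher in 3 of 3 libraries, with a ratio of 1.95 to 2.16. An exact two-sided sign-flip permutation test over the 3 libraries gave p = 0.25, the smallest that 3 libraries allow, so the design cannot reach 0.05. A gene-end region found in all 3 libraries was present at 20 of the 92 genes (21.7%), against 9.6% of all protein-coding genes. Counting 2 or more libraries it was 28 genes (30.4%, against 15.4% of all genes), 22 genes had peaks that overlapped in no other library, and 42 had no gene-end peak in any library. In any library, 50 of 92 genes (54.3%) had a gene-end peak, against 25.9% of all genes.

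The promoter windows of these genes were rich in CpG, the dinucleotide that marks the promoters of widely active genes. The 75 genes with a promoter entry had a median of 19 CpG per window, against 13 for the 17492 protein-coding genes with an entry. Where only genes with at least 10 CpG were compared (an alternative added with the values known), 42.9%, 41.4% and 41.4% of 70 oxidative phosphorylation genes had a gene-end peak in IP libraries 1, 2 and 3. Of the 9938 other such genes, 28.9%, 28.9% and 24.8% had one. The ratio was 1.43 to 1.67 under this setting, smaller than over all genes and above 1 in every library. The 20 regions thinned to 13 (14.1% of the genes, against 5.28% of all genes) with peaks of at least 8-fold over the input only. They thinned to 10 (against 5.41%) with the stronger 0.5 of each library's peaks, and to 12 (against 7.58%) where only overlaps of 0.5 or more of each peak's length were merged.

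**Figure D1:**
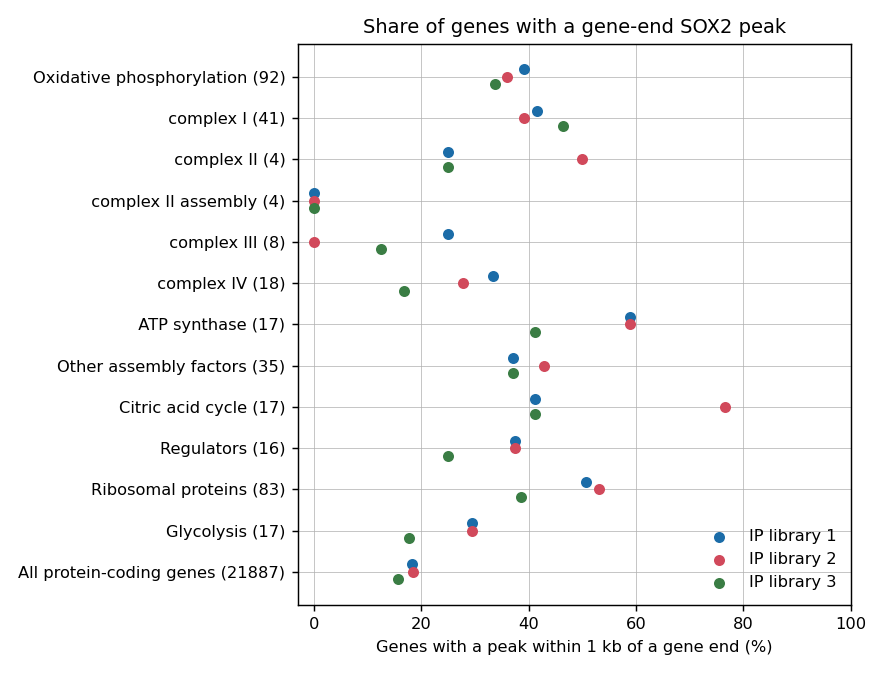
Share of genes with a SOX2 peak within 1 kb of a gene end (horizontal axis, percent) in each IP library (coloured points), for the oxidative phosphorylation genes, their complexes, related gene lists and all protein-coding genes, with the number of genes in brackets. The 3 points of the oxidative phosphorylation genes lie at 33.7% to 39.1%, against 15.7% to 18.4% for all protein-coding genes.

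The ATP synthase had the most gene-end regions found in all 3 libraries for its size, with 7 of 17 genes holding one (41.2%, against 9.6% of all genes). In IP library 3 alone complex I had the larger share with a gene-end peak. There it was 19 of 41 genes (46.3%), against 7 of 17 (41.2%) in the ATP synthase and 15.7% of all genes. Atp5pb, which encodes subunit b of the peripheral stalk that holds the enzyme's catalytic head still, was by far the strongest of the 92. It held 37.7, 42.8 and 34.4 normalized tags in IP libraries 1, 2 and 3 (38.3 ± 4.23, SD, n = 3), above more than 99% of the peaks of each library. The authors' ratio to the input was 124-fold, 141-fold and 113-fold there, with 1 input tag at each peak. No library of another gene-end region of the 92 came above 12.7.

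Other parts of the ATP synthase were far weaker. Atp5k, which encodes subunit e at the dimer interface, held 7.16, 6.77 and 7.64 normalized tags in IP libraries 1, 2 and 3 (7.19 ± 0.436). Atp5o, which encodes the OSCP subunit at the top of the stalk, held 7.98, 7.08 and 6.45 (7.17 ± 0.769). These ranges overlapped, so their order is not set by the data. Atp5c1, which encodes the rotating gamma subunit, held 5.78, 8.0 and 5.73 normalized tags (6.50 ± 1.30), and Atp5j2, which encodes subunit f, held 6.06, 8.0 and 4.54 (6.20 ± 1.73). In both genes IP library 2 was the highest. The c subunits of the proton-driven ring are encoded by Atp5g1, Atp5g2 and Atp5g3. Atp5g1 held 5.78, 5.85 and 5.01 normalized tags (5.55 ± 0.466) and Atp5g2 held 4.40, 4.62 and 4.78 (4.60 ± 0.191), the smallest spread among the 20 regions. Atp5g3 had no gene-end peak by the RefSeq gene span, but a region of 13.2, 11.1 and 12.2 normalized tags lay inside that span. It was 1.07 kb from an end and just outside the 1 kb limit. The start in the promoter table lies inside the span here, and the region was centred at -67 bp from it. By that start it is a promoter region, although it is not counted among the 20. Inside the 1 kb limit, the farthest region found in all 3 libraries was that of Cox7a2l, 0.257 kb from the end.

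Complex I, the NADH dehydrogenase, had 10 of 41 genes with a gene-end region found in all 3 libraries (24.4%, against 9.6% of all genes). Among its catalytic subunits, Ndufv1, which encodes the NADH-binding flavoprotein, held 11.0, 11.7 and 8.36 normalized tags in IP libraries 1, 2 and 3 (10.4 ± 1.76). With 3.9 to 4.0 input tags at its peaks, its fold over the input was 6.88 to 9.63. Ndufs8, which encodes an iron-sulfur subunit, held 6.61, 7.39 and 5.49 normalized tags (6.50 ± 0.955). Ndufs7, which encodes another, held 6.88, 4.62 and 5.97 (5.82 ± 1.14), so the values of both overlapped.

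The other 7 complex I genes encode accessory subunits, which surround the catalytic core. Ndufa7 held 12.7, 11.1 and 10.0 normalized tags in IP libraries 1, 2 and 3 (11.3 ± 1.36) and Ndufa11 held 7.43, 8.0 and 8.36 (7.93 ± 0.469). At both the input was at or near its floor of 0.5 tags, and the fold over the input was 33.0-fold to 83.4-fold at Ndufa7 and 49.0-fold to 55.1-fold at Ndufa11. Ndufb5 held 6.88, 6.77 and 6.45 normalized tags (6.70 ± 0.223), and Ndufa5 held 6.88, 6.46 and 5.49 (6.28 ± 0.713). Ndufs4, a gene whose loss impairs complex I in mice, held 5.78, 7.69 and 4.54 (6.0 ± 1.59). The weakest were Ndufb3, with 4.40, 5.85 and 3.82 (4.69 ± 1.05), and Ndufs5, with 3.85, 4.31 and 5.01 (4.39 ± 0.584). Ndufa7 did not overlap any other accessory subunit gene, and from Ndufb5 down each gene overlapped the next in this order.

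The remaining complexes had few gene-end regions. Complex IV, the cytochrome c oxidase, had 2 of 18 genes with one in all 3 libraries (11.1%, against 9.6% of all genes). The 18 include isoforms of restricted tissues, among them the testis isoforms Cox6b2, Cox7b2 and Cox8c, which had no gene-end peak in any library. Cox7a2l, which encodes a factor that joins respiratory complexes into supercomplexes, held 7.71, 9.23 and 8.36 normalized tags (8.43 ± 0.763), and Cox8a held 4.40, 7.08 and 6.45 (5.98 ± 1.40). Cox8a had the lowest mean fold over the input of the 20, at 4.94 (4.66 to 5.31 in the 3 libraries), where the authors' threshold is 4-fold. Complex II had 1 of 4, the membrane anchor gene Sdhc, with 5.51, 6.46 and 5.25 (5.74 ± 0.637). Complex III had 0 of 8 in all 3 libraries, and only Uqcrc1 (5.51, IP library 1), Uqcrfs1 (3.85, IP library 1) and Uqcrh (3.82, IP library 3, nearest to the start of Lrrc41) had a gene-end peak at all. The 4 complex II assembly genes had no gene-end peak in any library. These groups are small, and no difference between complexes was tested.

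**Figure D2:**
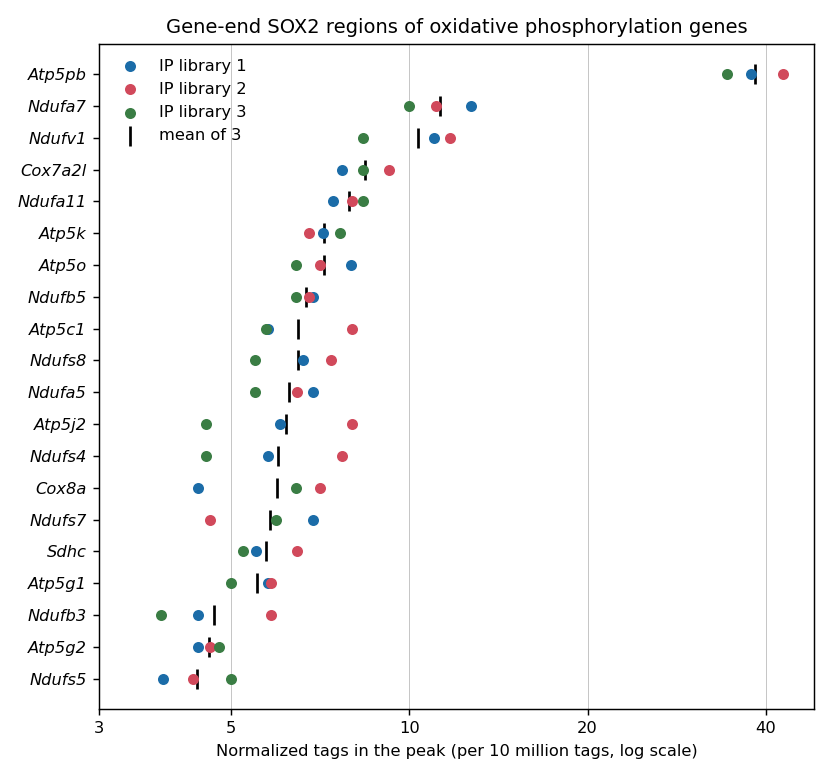
Normalized tags (horizontal axis, log scale, per 10000000 tags) of the 20 gene-end regions found in all 3 libraries, one row per gene, with a point for each IP library and a bar for the mean. Atp5pb stands alone at 34.4 to 42.8, and 17 of the 20 regions have a mean under 9.

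Some genes missed the count by 1 library. Cox7c, a complex IV subunit gene, had a peak of 10.5 normalized tags in IP library 1 and 11.5 in IP library 3, both above the mean of each of the 20 regions but those of Atp5pb and Ndufa7. It had no gene-end peak in IP library 2, and values where no peak was called are not in the tables used here. The other 7 genes with a region in 2 libraries were weaker, from Ndufb7 with 4.0 and 4.06 to Atp5j with 6.06 and 5.23. Atp5l and Ndufa10 had gene-end peaks in 2 libraries that did not overlap. The 45 gene-end peaks of regions in fewer than 3 libraries had a median of 4.62 normalized tags (range 3.34 to 11.5). Without IP library 2 the count was 22 of 92, with Cox7c, Ndufa6, Ndufb6 and Ndufs6 gained and Atp5g1 and Ndufs7 lost, the last pair being regions whose other peaks were joined only through that of IP library 2.

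These regions lay at the starts of the genes. The strand was taken from the promoter table, which matched 75 of the 92 genes. In the 19 of 20 genes that it covers, every region found in all 3 libraries was at the start, against 89.9% of the 1800 pairs of such a region and a gene end over all protein-coding genes. Counting the gene-end regions of any number of libraries, 49 of 50 were at the start, and the exception was a peak of IP library 2 at the finish of Ndufa10. The centres lay from -298 bp (upstream) to 37.5 bp (inside the gene) of the annotated start, with a median of -54.0 bp. Of the 19, 14 were centred within 100 bp of the start and 14 upstream of it. The start in the promoter table can lie inside the RefSeq gene span, as in Ndufs7, whose region is at -136 bp and within the span. Atp5pb was centred at -68.5 bp, Ndufa7 at -37.0 bp, Ndufv1 at -41.5 bp and Ndufa11 at 16.0 bp, while Cox7a2l at -256.5 bp and Atp5g1 at -298 bp were the farthest.

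**Figure D3:**
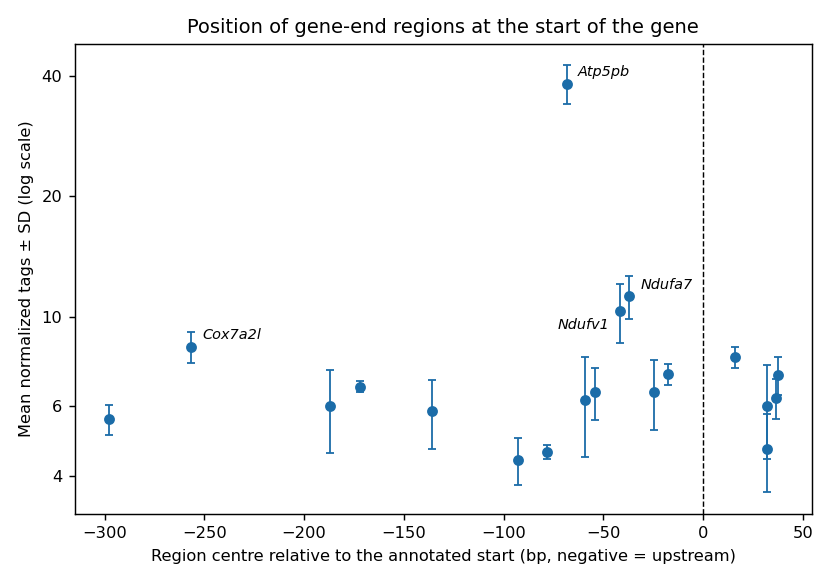
Centre of each gene-end region found in all 3 libraries relative to the annotated start of its gene (horizontal axis, bp) against its mean normalized tags (vertical axis, log scale; bars are the SD over 3 libraries), for the 19 genes with a known strand. The centres span -298 to 37.5 bp, and of the 5 strongest regions 4 lie between -68.5 and 16.0 bp and that of Cox7a2l at -256.5 bp.

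Some of these starts are shared with a neighbouring gene. For 9 of the 20 genes (45%) another protein-coding gene had an end within 1 kb of the region's centre, against 649 of the 2174 pairs (29.9%) of a gene and a gene-end region over all genes. For 7 of the 9 the table places the neighbour's start there. Atp5pb shares its region with Wdr77, which encodes a partner of the methyltransferase PRMT5, and Ndufa7 with Rps28, a ribosomal protein gene that lies nearer to the centre. Ndufa11 shares with Vmac, Ndufb5 with the mitochondrial ribosomal protein gene Mrpl47, Atp5c1 with Kin, Ndufa5 with Asb15 and Ndufb3 with Fam126b. Mrpl47 and Kin also lie nearer to the centre than Ndufb5 and Atp5c1. Ndufs8 shares its region with the finish of Aldh3b1. Among the genes with a region in 2 libraries, Atp5j shares it with Gabpa, which encodes a factor known to activate oxidative phosphorylation genes. A peak at such a site cannot be assigned to either gene. When only genes nearest to the centre were counted (an alternative added with the values known), 16 of the 20 were left.

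The letters in the promoter windows were counted by motif. The palindrome TCGCGA was chosen for counting after the sequences and values were seen, so its counts describe these windows and test nothing. It was present in 3 of the 19 promoter windows with a region in all 3 libraries (15.8%). These were the windows of Atp5pb, Ndufa7 and Ndufa11, whose regions are 3 of the 5 strongest by the mean over libraries. Their mean normalized tags were 38.3, 11.3 and 7.93, against a range of 4.39 to 10.4 and a median of 6.24 in the 16 windows without it. The Atp5pb window held it 3 times, with 2 inside the region, and the other windows once each. The copy nearest to the region's centre lay 17.0 bp away in Atp5pb, 23.5 bp in Ndufa7 and 12.5 bp in Ndufa11. Among the other 56 windows of these genes it was present in 2 (3.57%), those of Cox7b and Ndufb1, and it was present in 3.45% of all 17492 windows.

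The SOX core and motifs of 6 other factor families were searched on both strands. None of them contains another, and matches may overlap. Only the spelling given was searched for each family, so sites spelled otherwise, also of SOX factors and NRF1, were missed. The SOX core CATTGT was in 1 of the 19 windows (5.26%), against 16.1% of the other 56 and 11.2% of all windows. CCGGAAG, the site of ETS factors such as GABP, was in 25.3% of the 75 windows against 11.9% of all, and in 15.8% of the 19. TGCGCA, part of the site of NRF1, a known activator of respiratory genes, was in 26.7% of the 75 against 10.1% of all, and in 21.1% of the 19. AAGATGG (YY1) was in 13.3% of the 75 against 6.35% of all, and AAGGTCA (estrogen-related receptors) in 10.7% against 4.06%. CCAAT (NF-Y) was in 41.3% against 39.2%, and GGGCGG (SP and KLF factors) in 44% against 46.3%. Within the 75, GGGCGG was in 21.1% of the 19 windows with a region and in 51.8% of the 56 without. Over all genes the direction was the opposite, with 64.4% of the 1738 windows with a region and 44.3% of the 15754 without. The median GC content went the same way as these shares. It was 56% in the 19 windows and 58.8% in the 56, and over all genes 60.3% with a region and 55.7% without. How base composition bears on the GGGCGG shares was not tested. AAGATGG was in 21.1% of the 19 windows and in 10.7% of the 56. These are small counts, and a match of letters is neither a bound site nor, where missing, a sign that a factor is not there.

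Gene-end peaks of these genes were of ordinary strength. Their median was 5.51, 6.005 and 5.25 normalized tags in IP libraries 1, 2 and 3 (38, 36 and 31 peaks), against 5.78, 5.85 and 5.25 for the gene-end peaks of all protein-coding genes. Their median fold over the input was 9.18 to 12.4, against 9.05 to 10.6. The 20 regions found in all 3 libraries had a median of 6.39 normalized tags, against 7.15 for such regions at the ends of all genes. The median input at the peaks was 2 tags in every library in both sets.

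In IP libraries 1, 2 and 3, 74, 76 and 74 of the 92 genes had a peak inside or within 50 kb, where 62%, 62.5% and 60.2% of all protein-coding genes had one. Away from gene ends, 67 regions found in all 3 libraries lay inside or within 50 kb of 41 of the genes. With those at gene ends, 51 of 92 genes (55.4%) had a region found in all 3 libraries within 50 kb, against 46% of all protein-coding genes. With a window of 10 kb it was 30 of 92. The share over all genes was not counted for the 41 or the 30, so neither can be called high or low. Another gene was nearer to the centre for 61 of the 67, and the only one inside a member gene was that of Atp5g3 (1.09% of the 92 genes, against 11.5% of all genes, whose median span is 17.2 kb against 7.23 kb in the 92). That region was centred at -67 bp from the start in the promoter table, so it is away from the gene ends only by the RefSeq span. A single gene had up to 4 of the 67 regions. The 67 regions had a median of 8.28 normalized tags, against 6.39 in the 20 gene-end regions found in all 3 libraries, a difference that was not tested. The test was run on all called peaks, also those of 1 library only. There, gene-end peaks differed from the other peaks within 50 kb by -0.433 ± 0.412 normalized tags in the median (SD, n = 3 libraries). The medians in IP libraries 1, 2 and 3 were 5.51, 6.005 and 5.25 at gene ends against 6.33, 6.005 and 5.73 elsewhere. The medians were equal in IP library 2, and an exact two-sided sign-flip permutation test over the 3 libraries gave p = 0.5. With equal medians in 1 library this test allows no smaller p, so it cannot decide whether the 2 kinds of peaks differ. Gene-end peaks were lower in IP libraries 1 and 3. With only peaks whose nearest gene is one of the 92, the difference was 0.573 normalized tags in the other direction (p = 0.5, exact permutation test).

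**Figure D4:**
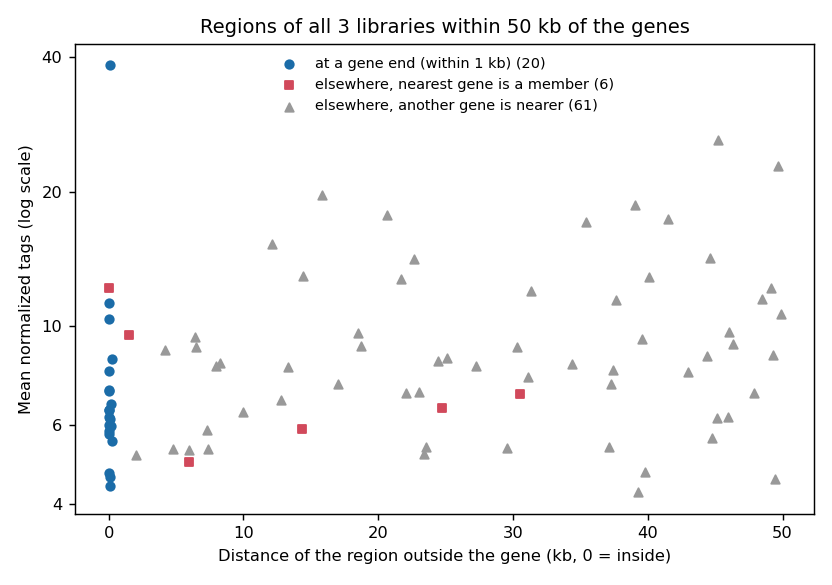
Distance of each region found in all 3 libraries outside its oxidative phosphorylation gene (horizontal axis, kb, 0 inside the gene) against its mean normalized tags (vertical axis, log scale). Of the regions away from gene ends, 61 (grey) lie nearer to another gene and 6 (red) nearest to one of the 92, and Atp5pb at 38.3 is above all of them.

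The strongest of these distant regions belonged to neighbourhoods of other genes. The region 45.2 kb from Ndufs5 held 23.7, 29.9 and 24.6 normalized tags in IP libraries 1, 2 and 3 and was nearest to Macf1, a cytoskeletal linker gene. A second one nearest to Macf1, 35.4 kb from Ndufs5, held 19.3, 19.7 and 12.2. The region 49.7 kb from Cox6a1 held 23.1, 24.6 and 20.8 and was nearest to Msi1, the RNA-binding protein gene of neural stem cells. In each case the nearest gene was outside the 92. A region 15.8 kb from Atp5g3 held 22.3, 19.7 and 17.0 at the start of Atf2, and one 39.0 kb from Ndufc2 held 19.8, 19.1 and 17.2 nearest to Kctd14. A region 20.6 kb from Cox4i2 held 18.2, 20.3 and 14.6 nearest to Bcl2l1, an inhibitor of cell death. The remaining 2 of the 8 strongest lay 41.5 kb from Sdhd (19.5, 17.2 and 15.5), at the starts of Il18 and Bco2, and 12.1 kb from Cox6b2 (14.9, 16.0 and 15.0), at the start of Kmt5c. Just inside the 50 kb limit a region 49.9 kb from Cox4i1 held 12.7, 8.93 and 10.3, and just outside it one 51.1 kb from Atp5g2 held 4.95, 5.85 and 7.64.

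The regions nearest to one of the 92 genes and away from its ends were 6 in number. One was that of Atp5g3, which lay at the start in the promoter table. Ndufa10 had one 1.50 kb beyond its finish, with 10.7, 8.62 and 9.31 normalized tags in IP libraries 1, 2 and 3. The others were at Ndufb4 (7.06 ± 1.52, 30.5 kb away), Ndufa8 (6.57 ± 1.55, 24.7 kb), Ndufb3 (5.89 ± 1.38, 14.3 kb) and Atp5g2 (4.96 ± 0.751, 5.98 kb). Ndufa1, Ndufb1, Ndufb4b, Sdhaf3, Uqcr10 and Uqcrc2 had no peak of any library within 50 kb, and the share of all genes without one was not counted.

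Other mitochondrial gene lists were counted in the same way. Of 35 further assembly factors of the respiratory chain, 9 had a gene-end region in all 3 libraries (25.7%, against 9.6% of all genes). Cox20 held 23.1, 25.5 and 14.3 normalized tags and Cox11 held 17.6, 19.7 and 17.7; both help to build complex IV. Bcs1l, which inserts the iron-sulfur protein of complex III, held 12.7, 11.7 and 10.3. Of 17 genes of pyruvate dehydrogenase and the citric acid cycle, 5 had one (29.4%), led by Mdh2, the mitochondrial malate dehydrogenase, with 21.5, 26.8 and 20.3. Of 16 regulators of mitochondrial genes, 2 had one (12.5%), namely Pprc1 (8.59 ± 2.96), a coactivator of the PGC-1 family, and Tfb2m (6.03 ± 0.884), a mitochondrial transcription factor. Cyc1, Cycs and Cyct, which encode cytochrome c1 and the cytochromes c, had 0 of 3.

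The same counts were made for 2 other housekeeping pathways. The 83 cytosolic ribosomal protein genes had a gene-end region in all 3 libraries at 24 genes (28.9%), with a median of 9.28 normalized tags against 6.39 in the oxidative phosphorylation genes. The 17 glycolysis genes had one at 2 (11.8%), Aldoc (9.65 ± 0.716) and Pkm (5.24 ± 1.11), with a median of 7.44 normalized tags. The ribosomal protein gene Rps28 is counted there with the region that Ndufa7 shares. These shares were not tested against each other.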

How the data were processed

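Each peak's normalized tags were deposited as a signal, scaled to 10000000 tags per library. Peaks were called by the authors in each IP library alone with HOMER findPeaks in factor mode against the input, per the file headers. The filters were 4-fold over the input and over the local 10 kb, a false positive p-value of 0.0001 in the authors' own filter and a false discovery rate of 0.001. Bowtie 1.0.0, HOMER 4.7 and mm10 are named in the submitters' processing notes. The fold per peak is a ratio deposited by the authors, IP over input, where an input under 0.5 tags counts as 0.5. The library totals given above came from the headers of all 3 IP libraries. Other total tags, deposited as counts in IP library 2 only, were not used. The peak score, deposited as tags after a cap per bp, ranked peaks in 1 alternative. The focus ratio, a fraction of tags deposited per peak, was read and is not reported. No peak table of the input was used.

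Here, gene spans and promoter windows came from RefSeq tables of GRCm38.p6, whose coordinates are those of mm10; no other genome sequence was used. Peak centres were placed at genes in Python 3.11.15 with numpy 2.4.6 and pandas 2.3.3, and figures drawn with matplotlib 3.10.9. Placing, merging and the sign-flip test were checked on simulated data. Values in every library are given for all genes with a gene-end region in all 3 libraries (limit 25) and the 8 strongest others. The genes and lists were chosen with earlier results of these data known. Of the genes at shared gene ends, 1 is not reported here. Alternatives varied the distances, thresholds, overlap, libraries, gene rule and background.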

Additional observations from a re-analysis of the deposited data

How the results depend on the processing

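No paired analysis was possible because the input has 1 sample and no peak table used here. The count of 20 genes with a gene-end region in all 3 libraries was 20 to 28 under the other distances, 2 libraries, other gene rules or 1 library left out (21 to 23 there). Of the alternatives added with the values known, only genes nearest to the region gave 16 and only the annotated start gave 19. It was 13 with peaks of at least 8-fold, 10 with the stronger 0.5 of peaks and 12 with overlap of 0.5 of both lengths; the stricter settings keep fewer peaks by construction. The median strength was 7.56 with the stronger 0.5 of peaks, against 6.39. Within 10 kb, 30 genes had a region found in all 3 libraries, against 51 within 50 kb, and no share over all genes was counted at 10 kb. The difference between gene-end and other peaks was 0.573 in place of -0.433 with only peaks whose nearest gene is one of the 92, and the cause was not tested. The higher share of genes with a gene-end peak kept its direction under every alternative run, from 8.11 percentage points with the stronger 0.5 of peaks to 21.8 without assembly factors and testis isoforms. Of 166 values of single genes, complexes and other lists under alternatives, 144 stayed within their limits and 22 moved. All 22 were counts of complexes or other lists. The single-gene values were means with 1 library left out, held against the SD over the 3 libraries. Such a mean cannot move that far, so these values say nothing about stability. Regions lost without a library, as at Atp5g1 and Ndufs7, were not among the 166. With a peak minimum of 13 to 16 tags, few tags separate the weak regions from no call.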

Other observations

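The palindrome TCGCGA was also counted over all protein-coding genes, after its presence at Atp5pb had been seen, so these shares are a description. Of the 1738 genes with a gene-end region in all 3 libraries and a promoter window, 200 (11.5%) held it, against 403 of 15754 (2.56%) without such a region. In the 175 of those genes with the strongest regions by normalized tags 52 windows (29.7%) held it, against 5 (2.86%) in the 175 weakest. The palindrome itself contains CpG. The median CpG per window was 21 with a region and 12 without, and 22 in the 175 strongest and 23 in the 175 weakest. How CpG content bears on these shares was not tested. Among the cytosolic ribosomal protein genes with a region and a window the palindrome was in 10 of 19 (52.6%). The SOX core CATTGT was in 184 of the 1738 windows with a region (10.6%), against 1783 of 15754 without (11.3%). Within those with a region it was in 28 of the 175 strongest (16%) and in 12 of the 175 weakest (6.86%). What binds at these windows was not measured here beyond the SOX2 pull-down and its input.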
